A study of Arabidopsis thaliana with 6 samples.

Results

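The net change of the bud transcriptome between day 3 and day 5 of soil drought was described from 4 of the 6 arrays of the series. Flower buds that had not yet opened were taken from Arabidopsis thaliana dreb1a mutants (CS872453, Col-0 ecotype), and all plants compared carried that mutation and were under drought. The day 5 group held 2 samples from plants aged 30 days, and the day 3 group held 2 samples from plants aged 28 days. A further 2 samples, from day 4 at an age of 29 days, entered the fit and are given where they show how a level moved. Watering had stopped once plants of 24 days had bolted to a stem of about 1 cm, and day 3 marked the point, some 80 hours later, at which the soil held near 35% of its capacity. From then on that moisture was maintained, so day 5 stood for 2 more days at one soil moisture. Plant age advanced with the drought day, and the effects of age and of drought cannot be told apart. Wild-type plants and watered plants were not analysed here. Whether the samples of a day were grown separately is not in the labels. P-values therefore reflect sample-to-sample spread that may be purely technical.

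Each sample was hybridised to 1 Affymetrix ATH1 array. The deposited values are log2 levels made by the authors, and a log2 change of 1 is a 2-fold change. Every probe set other than the array maker's controls was tested, which gave 22746 of 22810. A gene was named where the platform annotation gave a probe set exactly 1 gene, as for 13513 of them, and a locus stands for a gene that had no symbol. Called below is a probe set with an adjusted p under 0.05 in limma, adjusted by Benjamini-Hochberg over all probe sets tested. In buds a lower level of a transcript can stand for fewer cells of a type or for less RNA per cell, and these cannot be told apart.

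Buds under drought combine protection against water loss with continued growth of young organs. Abscisic acid, made when water is short, switches on genes for late embryogenesis abundant (LEA) proteins, dehydrins and other protectants, many of which also accumulate in drying seeds. Growth by cell division and wall loosening, starch and sugar handling, and chloroplast formation are processes that plants commonly adjust during water deficit.

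As a check of the tissue, the tapetum transcription factor gene AMS had levels of 8.81 and 9.23 on day 5 and 9.51 and 9.61 on day 3, and ATA27, of the tapetum glucosidase family, had 12.48 and 12.33 on day 5 and 12.31 and 12.03 on day 3. The root marker PYK10 had 4.29 and 4.31 on day 5 and 4.26 and 4.29 on day 3, and the root hair expansin gene EXPA7 had 4.37 and 4.32 on day 5 and 4.18 and 4.38 on day 3. Both root genes lay below the lower quartile of all values, 4.99, on every array of the 2 days. Not every floral marker was above that quartile. The meristem gene CLV3 had 4.04 and 4.15 on day 5 and 3.83 and 3.91 on day 3. RCA, the activator of Rubisco and a gene of green tissue, had 13.02 and 12.93 on day 5 and 13.07 and 13.00 on day 3. DREB1A itself was not analysed here, so the labels alone give the genotype.

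Between day 5 and day 3, 6566 probe sets passed the test, 28.9% of those tested. Of these 2994 were higher on day 5 (13.2% of those tested) and 3572 were lower (15.7%). The changes of at least 2-fold were fewer, with 456 rises (2.00%) and 290 falls (1.27%). Large changes were mostly rises: at least 4-fold changes comprised 82 rises and 14 falls, and at least 8-fold changes 22 rises and 2 falls. Without day 5 replicate 2 the calls numbered 3844, without day 3 replicate 2 they numbered 4097, and without day 3 replicate 1 they numbered 4362. When probe sets were split into 4 equal groups by mean level, 6.66% of the dimmest were called, against 34.6%, 35.9% and 38.2% in the other groups, from dim to bright. The median SE of a change was 0.11.

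The array controls moved as well. The 27 control probe sets for added poly-A RNA were higher on day 5, by a median of 0.43, while 18 hybridisation controls changed by a median of -0.07. Array means of the poly-A controls were 7.1 and 7.19 on day 5 and 6.64 and 6.77 on day 3. Several of the 27 read the same added RNA, so they are not separate observations. The 25S ribosomal RNA control had 13.30 and 13.52 on day 5 and 12.30 on both day 3 arrays. The 5S ribosomal RNA control had 5.40 and 5.90 on day 5 and 4.18 and 4.52 on day 3. As a measure of RNA integrity, the 3' minus 5' difference of the actin control was 3.46 and 3.47 on day 5 and 3.42 and 3.65 on day 3. For the GAPDH control that difference was 1.25 and 1.26 on day 5 and 1.19 and 0.94 on day 3, so it was higher on both day 5 arrays. Another pair of GAPDH controls went the other way. Its 3' levels were 12.41 and 12.50 on day 5 and 12.54 and 12.65 on day 3. Its 5' levels were 12.34 and 12.37 on day 5 and 12.37 and 12.46 on day 3. The difference of that pair was thus lower on both day 5 arrays. When every array was shifted to equal poly-A control levels (poly-A scaling below), the median change of all probe sets moved to -0.45, 818 probe sets rose and 16417 fell, and rises made up 4.75% of calls in place of 45.6%. After cyclic loess they made up 53.1%. Each change given is thus one relative to the bulk of transcripts on an array, and the part of the controls in it was not tested.

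**Figure D1:**
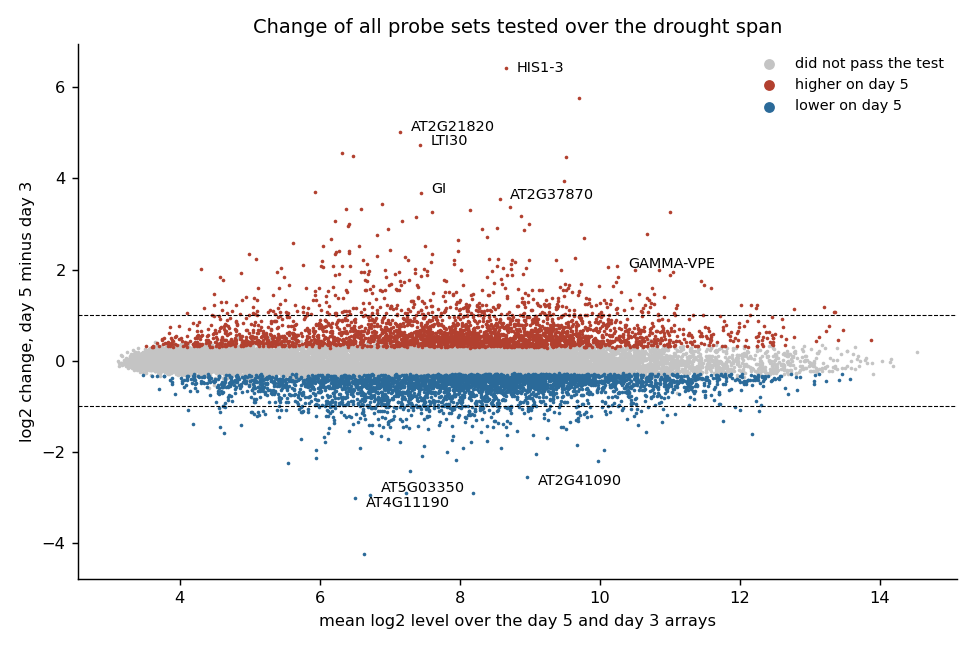
Log2 change from day 3 to day 5 against the mean log2 level over the arrays of both days, 1 point per probe set; red points were called higher on day 5, blue points lower, grey points did not pass, and dashed lines mark 2-fold. The rises reach further than the falls, up to 6.42 for HIS1-3, and poly-A scaling would lower all points by about 0.45.

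The named gene with the largest rise was HIS1-3 (AT2G18050), a linker histone gene known to respond to drought and abscisic acid. Its levels were 11.62 and 12.11 on day 5 and 5.47 and 5.43 on day 3, with 6.74 and 7.62 on day 4. That is an 85.7-fold difference with no overlap (SE 0.23 on the log2 scale, limma adjusted p = 9.07e-08, n = 2 per day). HON4 (AT3G18035), the other linker histone gene measured, did not pass, with 10.54 and 10.69 on day 5 and 10.51 and 10.60 on day 3. It was named after its values had been seen, and its change of 0.06 turned to -0.38 with poly-A scaling.

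Genes for LEA proteins and dehydrins, which protect membranes and proteins as cells dry, made up the broadest group of rises among the lists examined. Of 33 measured genes 20 rose and none fell, and 13 did not pass, against 13.2% of all probe sets that rose. The share called was 60.6%, against 28.9% of all probe sets, and the median change was 0.57, against -0.01. The dehydrin gene LTI30 (AT3G50970) had 9.64 and 9.97 on day 5 and 5.01 and 5.14 on day 3 (log2 change 4.73, SE 0.20). LEA18 (AT2G35300) had 8.87 and 9.61 on day 5 and 5.99 and 5.96 on day 3, and LEA4-5 (AT5G06760) had 9.99 and 10.73 on day 5 and 7.29 and 7.69 on day 3. For each of these the lower day 5 array stood well above the higher day 3 array. AT3G17520, a LEA family gene, had 6.97 and 8.61 on day 5 and 4.12 and 4.04 on day 3, so its day 5 arrays differed from each other by more than those of the other 3 genes.

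Other LEA family genes already had high levels on day 3 and rose less. AT3G02480 had 12.58 and 12.66 on day 5 and 11.40 and 11.42 on day 3 (change 1.21, SE 0.10, limma adjusted p = 1.13e-05). DI21 (AT4G15910), named for its induction by drought, rose by 1.27 (SE 0.13). The cold-regulated gene COR15A (AT2G42540), whose product protects chloroplast membranes, had 12.60 and 12.69 on day 5 and 11.58 and 11.73 on day 3. Of 5 measured cold-regulated genes 4 rose, against 13.2% of all probe sets, and LTI30 is among these as well as on the LEA list. The fifth, COR15B (AT2G42530), did not pass, at a change of -0.14 (limma adjusted p = 0.386). LEA (AT2G21490), a dehydrin gene, rose by 0.65, and this call ended with poly-A scaling (0.21, adjusted p = 0.124). Over the whole list of LEA and dehydrin genes that scaling left 10 members called higher and turned 9 to called lower, with a median of 0.13.

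The 30 largest named rises lay between 2.20 and 6.42, that is at least 4.58-fold, and their largest limma adjusted p was 7.31e-05. Their median level was 5.53 on day 3, 6.56 on day 4 and 8.77 on day 5. For 26 of the 30 the day 4 mean lay between those of the other days, and for 26 the step from day 4 to day 5 was larger than that from day 3 to day 4. Of the 30, 8 had a day 3 mean below the lower quartile of all values, where an array reads little above its floor. Only a locus was known for 21 of them.

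After HIS1-3, the next named rise was that of AT2G21820, with 9.20 and 10.12 on day 5 and 4.80 and 4.48 on day 3. AT5G66780 had 8.31 and 8.91 on day 5 and 3.91 and 4.17 on day 3, and AT3G15670, of the LEA family by its locus, had 8.19 and 9.28 on day 5 and 4.02 and 4.45 on day 3. The day 3 levels of all 3 lay below the lower quartile of the values, so the size of their folds is less certain than their direction. ZW9 (AT1G58270), of the TRAF-like family, rose by 3.44 (SE 0.21). AT1G16850 had 9.71 and 9.90 on day 5 and 6.32 and 6.69 on day 3. SIS (AT5G02020), a salt-induced gene for a serine-rich protein, had 10.31 and 10.67 on day 5 and 7.45 and 7.54 on day 3 (change 2.99, SE 0.14).

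GI (AT1G22770), which links the circadian clock to flowering time, had 5.63 and 5.59 on day 3, 8.12 and 8.07 on day 4 and 9.23 and 9.33 on day 5. Its replicate arrays lay close together and the 3 days did not overlap, with a change of 3.67 (SE 0.10, limma adjusted p = 1.46e-08). The labels give no hour of harvest, and the part of the time of day was not tested. AT2G37870, of the lipid-transfer protein family, had 10.27 and 10.41 on day 5 and 6.58 and 7.03 on day 3, and most of that rise was already present on day 4 at a mean of 9.80. AT1G80130, of the tetratricopeptide repeat family, likewise had a day 4 mean of 9.40, with 10.53 and 10.40 on day 5 and 7.16 and 7.42 on day 3. CYP71B31 (AT3G53300), a cytochrome P450 gene, had 7.53 and 7.70 on day 5 and 5.75 and 4.73 on day 3, with a mean of 7.66 on day 4. These 4 genes were those of the 30 in which the step from day 3 to day 4 was the larger.

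Regulators and protein-turnover genes were also among the largest rises, a grouping made after the genes had been chosen and not counted against all probe sets. AT1G76590, of the PLATZ zinc-binding factor family, had 8.65 and 9.27 on day 5 and 5.80 on both day 3 arrays. AT5G61590, the ERF factor gene known as DEWAX, which represses wax synthesis, had 8.25 and 8.47 on day 5 and 6.34 and 5.98 on day 3, and its day 4 mean of 5.59 was the lowest of the 3 days. AT1G26800 and AT5G47610, both of the RING-type ubiquitin ligase family, rose by 2.99 (SE 0.19) and 2.75 (SE 0.14). AT5G01300, of the phosphatidylethanolamine-binding family, rose by 3.07 (SE 0.21). The remaining genes of the 30 included AT1G22890, AT5G45310, AT5G42290, AT3G20340, AT3G13130, AT4G28703, AT1G21680, AT5G43150 and AT3G03170, with changes of 3.06, 2.95, 2.58, 2.41, 2.38, 2.34, 2.25, 2.23 and 2.20 in that order.

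**Figure D2:**
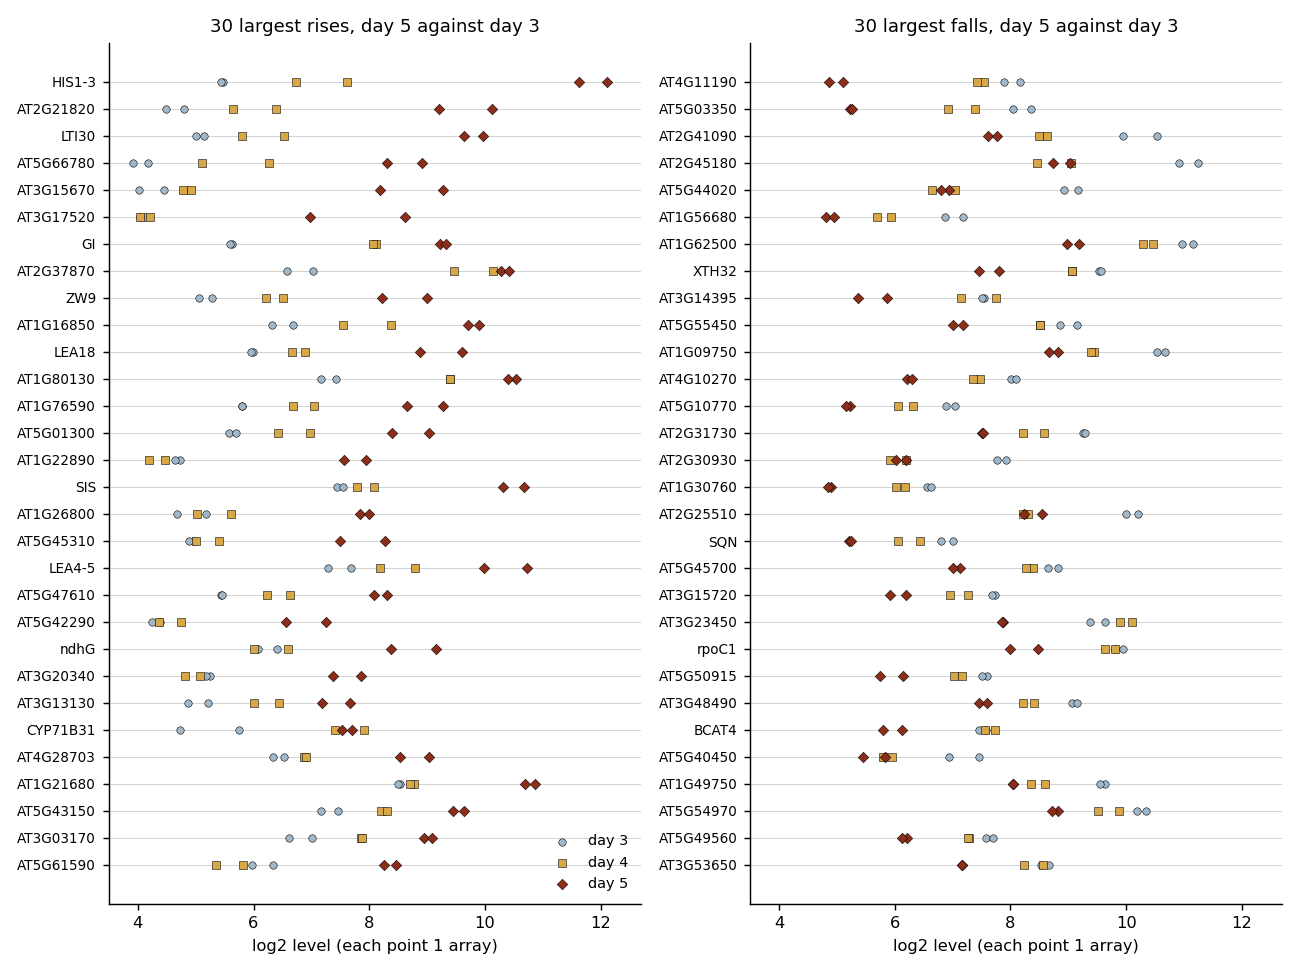
Log2 levels on every array for the 30 largest named rises (left) and the 30 largest named falls (right) of day 5 against day 3; circles are day 3, squares day 4 and diamonds day 5, with 2 arrays a day. The day 5 and day 3 points of each gene do not overlap, which the choice of these genes required.

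Among ubiquitin ligase genes chosen as a family, 5 of 17 rose and 1 fell, and the 35.3% called lay near the 28.9% of all probe sets. Only 2 rose without day 3 replicate 1, and with poly-A scaling 2 rose and 11 fell. SKP2A (AT1G21410), an F-box gene of cell cycle and auxin control, had 9.78 and 10.01 on day 5 and 8.53 and 8.79 on day 3 (change 1.24, SE 0.12). XERICO (AT2G04240), whose overexpression raises abscisic acid, had 10.68 and 10.93 on day 5 and 9.78 and 9.56 on day 3 (change 1.14, SE 0.13). FBL17 (AT3G54650), an F-box gene needed for cell division in pollen, was lower on both day 5 arrays, at 7.89 and 8.09, than on the day 3 arrays, at 8.63 and 8.59.

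Most measured genes for ATG8 proteins, which mark the membranes of autophagy, rose. Of 10 measured autophagy genes 8 rose and none fell, against 13.2% of all probe sets that rose, with a median change of 0.58. Fewer rose without day 3 replicate 2 or without day 5 replicate 1, at medians of 0.51 and 0.52. With poly-A scaling only 1 of the 10 was called higher, ATG8F, and the median was 0.15. ATG8F (AT4G16520) had 10.37 and 10.50 on day 3, 10.36 and 10.48 on day 4 and 11.33 and 11.35 on day 5 (change 0.91, SE 0.10, limma adjusted p = 8.4e-05). Its levels on days 3 and 4 overlapped, and only the day 5 arrays stood apart. ATG8B rose by 0.71 and APG8H, a further ATG8 gene, by 0.70, while ATG8E rose by 0.61 after a day 4 level of 6.55 to 6.61 that lay under its day 3 arrays at 7.38 and 7.18. ATG8D and ATG3, named after their values had been seen, had changes of 0.30 (adjusted p = 0.0518) and 0.17 (adjusted p = 0.295).

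Of 18 measured SWEET, tonoplast and related sugar genes 5 rose and 3 fell, with a median of 0.01. In all 44.4% were called, against 28.9% of all probe sets, and the share that fell was near the 15.7% of all probe sets. Of the 18, SWEETIE shares the symbol but is not a carrier gene. Without day 3 replicate 1, and also without day 5 replicate 2, 3 rose and 2 fell, and with poly-A scaling 3 rose and 11 fell. SWEET4 (AT3G28007), a sugar exporter gene, had 9.79 and 9.78 on day 3, 10.59 and 10.64 on day 4 and 11.11 and 11.10 on day 5 (change 1.32, SE 0.10, limma adjusted p = 4.79e-06). TMT2 (AT4G35300), for a carrier that loads sugar into the vacuole, had 9.51 and 9.56 on day 5 and 8.20 and 8.29 on day 3. SWEET13 (AT5G50800) had 9.54 and 9.71 on day 5 and 8.13 and 8.53 on day 3, with day 4 at 9.59 and 9.75. In the other direction, SWEET17 (AT4G15920), a vacuolar fructose carrier gene, had 7.36 and 7.30 on day 5 and 8.49 and 8.13 on day 3 (change -0.98, SE 0.12).

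Of 5 measured starch enzyme genes 3 rose and none fell, against 13.2% of all probe sets that rose, with a median of 0.76. Both measured large-subunit genes of ADP-glucose pyrophosphorylase, which makes the precursor of starch, were among them. APL4 (AT2G21590) had 9.19 and 9.30 on day 5 and 8.16 and 8.35 on day 3, and APL3 (AT4G39210) had 8.83 and 8.73 on day 5 and 8.04 and 7.89 on day 3. For both the level on day 4 was about that of day 5. With poly-A scaling 2 of the 5 rose. Fewer than in the main fit rose without day 3 replicate 1 or without day 5 replicate 1, at medians of 0.65 and 0.46.

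Of 8 measured genes known to respond to sugar starvation 5 rose and none fell, against 13.2% of all probe sets that rose, with a median of 0.42, and without day 3 replicate 1 only 3 rose. With poly-A scaling 2 rose and 1 fell. AT3G15450 and AT4G27450, of the aluminium-induced family, moved down and then up. AT3G15450 had 9.60 and 9.16 on day 3, 7.75 and 8.14 on day 4 and 10.90 and 11.29 on day 5, and its net change was 1.72 (SE 0.18). AT4G27450 had 8.91 and 8.97 on day 3, 7.38 and 7.81 on day 4 and 9.87 and 10.35 on day 5, with a net change of 1.17 (SE 0.17). The net change of these genes thus understates how far they moved between the last 2 days.

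Hormone genes with a named probe set were few. WES1 (AT4G27260), which conjugates auxin to amino acids, had 9.80 and 10.11 on day 5 and 8.07 and 7.79 on day 3 (change 2.03, SE 0.14, limma adjusted p = 3.76e-06). GH3.17 (AT1G28130), of the same enzyme family, rose by 0.82 (SE 0.14), while its relative GH3.3 (AT2G23170) was lower, with 8.17 and 8.27 on day 5 and 8.80 and 9.03 on day 3. In the auxin list of 7 measured genes, 2 rose and 1 fell, 42.9% called against 28.9% of all probe sets. With poly-A scaling 2 rose and 5 fell. The gibberellin receptor gene GID1B (AT3G63010) had 7.26 and 7.29 on day 5 and 6.41 and 6.07 on day 3, and SLY1 (AT4G24210), whose F-box protein removes DELLA repressors of gibberellin signalling, had 8.89 and 8.97 on day 5 and 9.42 and 9.36 on day 3 (change -0.46). ARR15 (AT1G74890), a cytokinin-induced response regulator gene named after its values had been seen, had 7.11 and 6.72 on day 5 and 8.11 and 8.20 on day 3 (change -1.24, SE 0.14).

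**Figure D3:**
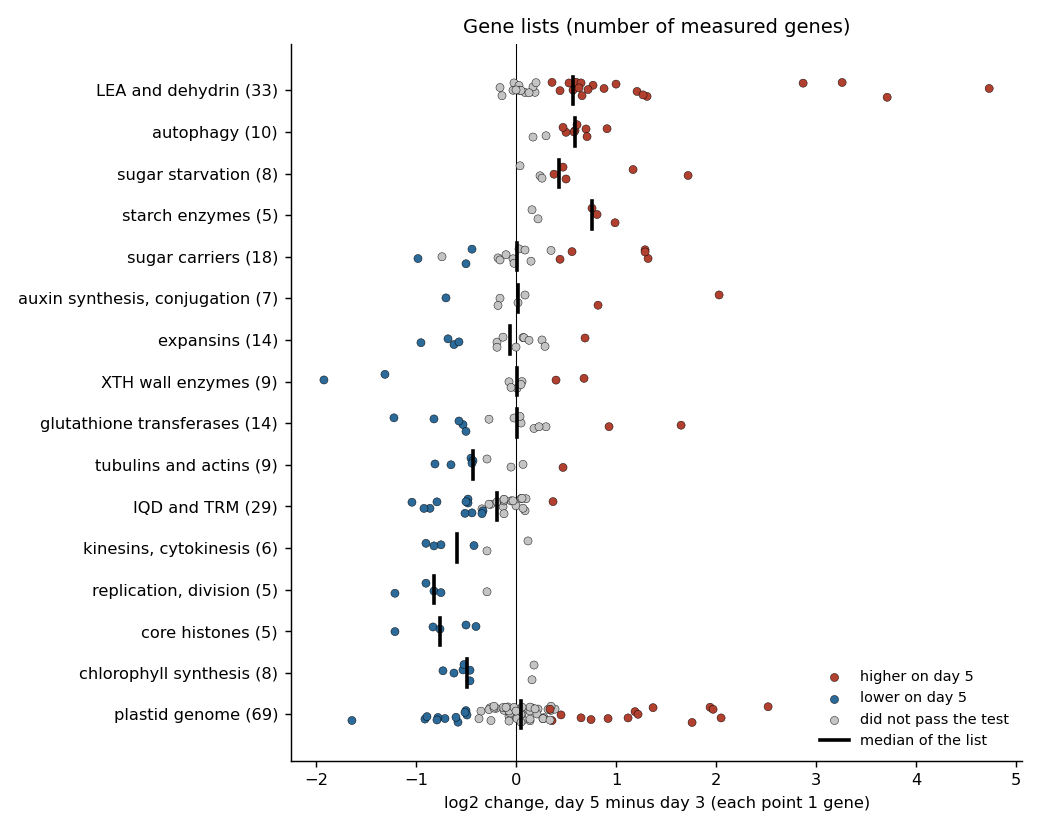
Log2 change from day 3 to day 5 of each measured gene in 16 lists, 1 point per gene, with the median of a list as a black bar and the number of measured genes in brackets; red and blue points were called. The medians of LEA and autophagy genes lie to the right of 0, those of division, histone and chlorophyll genes to the left, and plastid genes spread from -1.64 to 2.52. Poly-A scaling moves all points left by about 0.45 and turns part of the small rises to falls.

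Among the genes named for the size of their change, the falls were smaller than the rises and began from higher levels on day 3. Choosing genes by that change favours such a difference in starting level. The 30 largest named falls lay between -3.03 and -1.43, with median levels of 8.67 on day 3, 7.95 on day 4 and 6.97 on day 5, and a largest limma adjusted p of 6.98e-05. For 24 of them the day 4 mean lay between those of the other days. AT4G11190, of the dirigent protein family that guides coupling of wall phenolics, had 5.11 and 4.86 on day 5 and 7.88 and 8.16 on day 3. AT5G03350, of the legume lectin family, had 5.23 and 5.27 on day 5 and 8.04 and 8.35 on day 3. The calmodulin-like gene AT2G41090 had 7.61 and 7.77 on day 5 and 10.54 and 9.94 on day 3.

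By their families, several of these genes may encode secreted or wall proteins. This grouping was made after the genes had been chosen and was not counted against all probe sets. Of the lipid-transfer protein family, AT2G45180 had 9.03 and 8.74 on day 5 and 11.24 and 10.92 on day 3, AT1G62500 had 8.97 and 9.19 on day 5 and 11.15 and 10.96 on day 3, and AT5G55450 fell by 1.91 (SE 0.12). The first of the 3 had reached its day 5 level on day 4, with a day 4 mean of 8.75, while AT1G62500 was still at 10.37 on day 4. AT1G09750 and AT5G10770, of the aspartyl protease family, fell by 1.86 (SE 0.11) and 1.78 (SE 0.12). AT5G44020, an acid phosphatase family gene, had 6.93 and 6.80 on day 5 and 9.17 and 8.93 on day 3, and AT1G56680, of the chitinase family, had 4.81 and 4.95 on day 5 and 6.86 and 7.18 on day 3. AT3G15720, of the pectin lyase-like family, and the glycine-rich protein gene AT3G23450 changed by -1.66 and -1.64, and the day 4 mean of AT3G23450, 9.99, lay above that of either other day.

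Other large falls included regulators and metabolic genes, also grouped after the genes had been chosen. AT2G31730 and AT5G50915, of the bHLH factor family, fell by 1.76 (SE 0.12) and 1.60 (SE 0.13). SQN (AT2G15790), a cyclophilin gene that promotes microRNA activity and the timing of shoot phases, had 5.21 and 5.24 on day 5 and 7.01 and 6.80 on day 3. BCAT4 (AT3G19710), for the first enzyme of methionine chain elongation toward glucosinolates, had 5.79 and 6.12 on day 5 and 7.58 and 7.46 on day 3, with a mean of 7.64 on day 4. A further 11 were AT3G14395, AT4G10270, AT2G30930, AT1G30760, AT2G25510, AT5G45700, AT3G48490, AT5G40450, AT1G49750, AT5G54970 and AT5G49560, with changes of -1.91, -1.79, -1.73, -1.72, -1.71, -1.66, -1.58, -1.55, -1.54, -1.50 and -1.47 in that order.

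Among wall-loosening enzymes, XTH32 (AT2G36870), of the family that cuts and rejoins wall xyloglucan, had 9.53 and 9.57 on day 3, 9.06 and 9.07 on day 4 and 7.45 and 7.81 on day 5 (change -1.92, SE 0.12). XTH16 (AT3G23730) had 8.62 and 8.60 on day 5 and 9.87 and 9.96 on day 3 (change -1.31, SE 0.13). Of 9 measured genes of this family 2 fell and 2 rose, 44.4% called against 28.9% of all probe sets, and only 1 rose without either day 5 array or without day 3 replicate 2. Of 14 measured expansin genes, whose products loosen walls during growth, 4 fell and 1 rose, and the 35.7% called lay near the 28.9% of all probe sets. Without day 3 replicate 2, 3 fell and 2 rose. EXPA15 (AT2G03090) had 10.16 and 9.93 on day 5 and 11.05 and 10.95 on day 3, and EXPA4 fell by 0.68 (SE 0.12). EXPA8 (AT2G40610) rose by 0.69, a call that ended with poly-A scaling (0.25, adjusted p = 0.121), under which none of the expansin or xyloglucan genes was called higher and 11 and 7 were called lower. ADPG1 (AT3G57510), a polygalacturonase gene of anther and fruit opening, had 9.44 and 9.37 on day 5 and 8.49 and 8.29 on day 3 (change 1.02, SE 0.12).

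Of 5 measured genes of chromosome duplication and division 4 fell and none rose, against 15.7% of all probe sets that fell. Their median was -0.82, and 4 fell whichever array was left out. HTR12 (AT1G01370), the centromeric histone H3, had 6.88 and 6.97 on day 5 and 8.11 and 8.17 on day 3 (change -1.21, SE 0.11, limma adjusted p = 2.45e-05). PRL (AT4G02060), for the MCM7 subunit of the replication helicase, had 9.11 and 9.02 on day 5 and 10.00 and 9.92 on day 3. AUR1 (AT4G32830) and AUR2 (AT2G25880), mitotic Aurora kinases, had 8.59 on both day 5 arrays against 9.40 and 9.42 on day 3, and 8.70 and 8.68 on day 5 against 9.30 and 9.56 on day 3. For each the day 4 arrays lay between. AUR3 (AT2G45490), the third Aurora kinase gene, did not pass, with 7.27 and 7.57 on day 5 and 7.64 and 7.79 on day 3 (adjusted p = 0.103). Of 6 genes of kinesins and cytokinesis, 3 of them the Aurora genes, 4 fell and none rose, against the same 15.7%, among them KINESIN-12B (AT3G23670), a motor of the phragmoplast, with 6.61 and 6.73 on day 5 and 7.63 and 7.51 on day 3.

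The 5 core histone genes listed by their symbols all fell, against 15.7% of all probe sets, with a median of -0.76, and HTR12 is 1 of them. HTB1 (AT1G07790), a histone H2B gene, had 10.15 and 10.07 on day 5 and 10.86 and 11.02 on day 3. HTB2 (AT5G22880) had 11.20 and 11.23 on day 5 and 11.97 and 11.98 on day 3, and AT3G53650, an H2B gene given by locus and so not on that list, had 7.17 and 7.16 on day 5 and 8.52 and 8.67 on day 3 (change -1.43, SE 0.12). HTB11 and HTB4 changed by -0.50 and -0.40, and the call of HTB4 ended when either replicate 1 was left out, at an adjusted p of 0.0604 without that of day 3 and 0.0625 without that of day 5. H2B genes are near-identical in sequence, and a probe set may read more than 1 of them.

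Of 9 tubulin and actin genes 5 fell and 1 rose, 66.7% called against 28.9% of all probe sets, with a median of -0.43. Only 3 fell without day 3 replicate 2, and with poly-A scaling 8 fell and none rose. The 1 rise was lost without day 3 replicate 1 or day 5 replicate 1. TUB7 (AT2G29550), a beta-tubulin gene, had 10.42 and 10.51 on day 5 and 11.30 and 11.25 on day 3 (change -0.81, SE 0.10), and TUB5 fell by 0.65 (SE 0.12). Of 29 IQD and TRM genes, families of which many proteins attach to microtubules, 11 fell and 1 rose, and 17 did not pass, with a median of -0.19. The share called was 41.4%, against 28.9% of all probe sets, and with poly-A scaling 28 fell and none rose. One of the 11, TRM82, shares the symbol but encodes a protein of tRNA methylation. Without day 3 replicate 2, and also without day 5 replicate 2, 6 fell, and the rise was lost when any single array of day 5 or day 3 was dropped. TRM28 (AT5G03670) had 7.58 and 7.42 on day 5 and 8.58 and 8.49 on day 3 (change -1.04, SE 0.11), and TRM24, TRM31 and IQD24 changed by -0.79, -0.92 and -0.86. As in all 6566 calls, no day 5 array of these 4 genes overlapped a day 3 array.

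**Figure D4:**
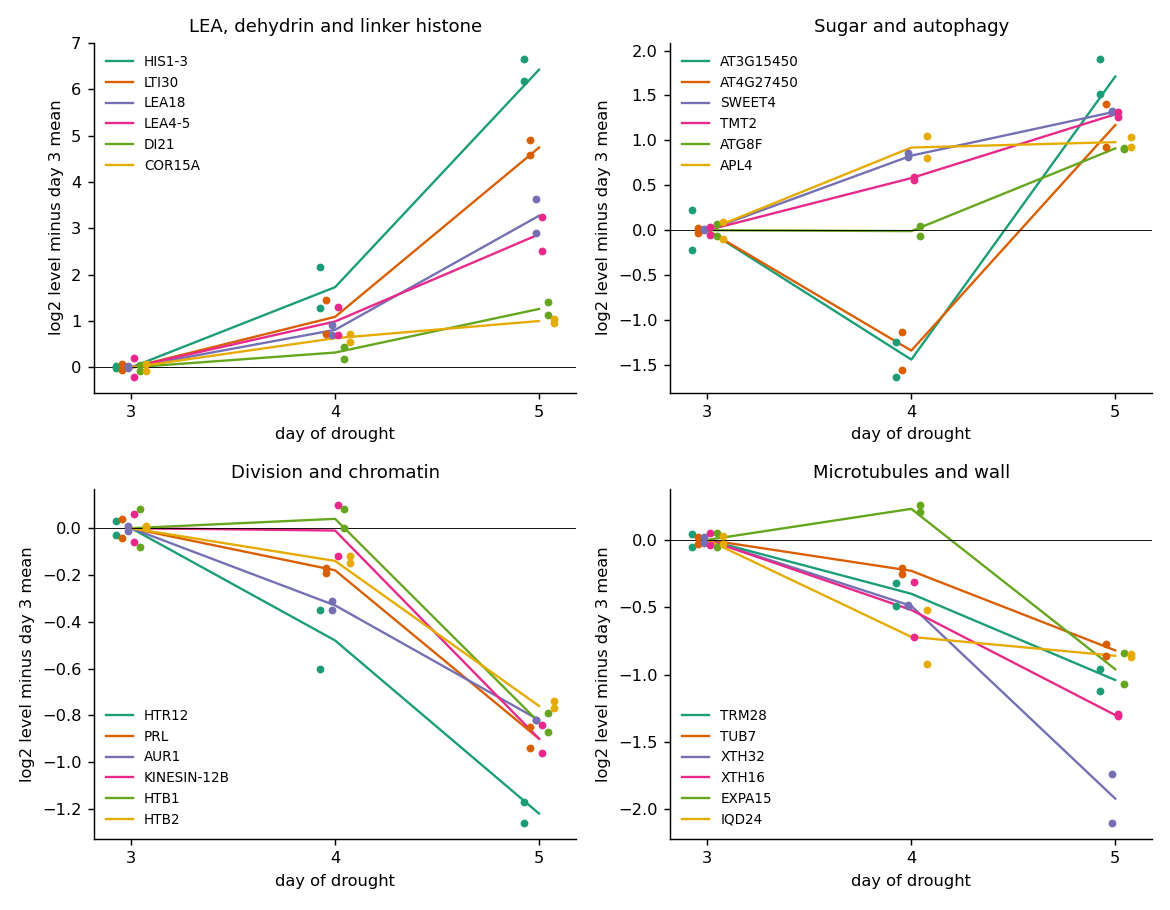
Log2 level on each day minus the gene's day 3 mean, for 6 genes in each of 4 groups; points are single arrays (2 a day) and lines join the means of days 3, 4 and 5. AT3G15450 and AT4G27450 lie below 0 on day 4 and above it on day 5, while most other genes shown move one way.

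Of 8 measured genes of chlorophyll synthesis and its precursors 6 fell, 2 did not pass and none rose, against 15.7% of all probe sets that fell. The median was -0.49, and -0.93 with poly-A scaling. HEME2 (AT2G40490), for uroporphyrinogen decarboxylase, had 9.32 and 9.28 on day 5 and 9.96 and 10.10 on day 3 (change -0.73, SE 0.10, limma adjusted p = 3.71e-04). CHLI2, a subunit of the enzyme that inserts magnesium, changed by -0.62, CHLM, the methyltransferase of the next step, by -0.53, and PORB, the light-dependent reductase, by -0.52. The call of PORB ended without day 3 replicate 1 (adjusted p = 0.0521). Of 7 nuclear genes for photosystem subunits and antenna proteins 1 rose and 3 fell, 57.1% called against 28.9% of all probe sets. Dropping any single array of day 5 or day 3 left 1 fall, and with poly-A scaling none rose and 5 fell. LHCB4.2 (AT3G08940), an antenna gene, had 11.25 and 11.44 on day 5 and 10.62 and 10.79 on day 3, and its rise of 0.64 did not pass with poly-A scaling (0.21, adjusted p = 0.176). PSAN (AT5G64040), a photosystem I subunit gene, had 11.47 and 11.42 on day 5 and 11.90 on both day 3 arrays.

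Of 69 measured genes that the plastid genome itself carries, 15 rose and 11 fell, with a median of 0.05, and 37.7% were called, against 28.9% of all probe sets. The rises numbered 9 without day 3 replicate 2, and without day 3 replicate 1, 7 fell. With poly-A scaling 10 rose and 39 fell. Of 10 genes of the NDH complex, which returns electrons to the photosynthetic chain, 4 rose and none fell. That stands against 15 of the 69 plastid genes and 13.2% of all probe sets that rose. ndhG had 8.37 and 9.15 on day 5 and 6.41 and 6.08 on day 3 (change 2.52, SE 0.24), and ndhE had 8.03 and 8.28 on day 5 and 6.30 and 6.49 on day 3. psaC, for a subunit of photosystem I, had 7.47 and 7.73 on day 5 and 5.78 and 5.54 on day 3. The RefSeq locus tags of psaC, ndhE and ndhG follow each other, so these genes are neighbours. ndhF had 6.75 and 7.40 on day 5 and 4.95 and 5.09 on day 3, and psbT, of photosystem II, had 7.27 and 8.12 on day 5 and 5.89 and 5.55 on day 3.

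For these 5 plastid genes the day 4 arrays lay near or below the day 3 level, so the rise came between day 4 and day 5. In contrast rpoC1, for a subunit of the plastid RNA polymerase, had 9.95 and 9.80 on day 3, 9.81 and 9.64 on day 4 and 7.99 and 8.48 on day 5 (change -1.64, SE 0.15, limma adjusted p = 2.39e-05). Of 4 polymerase genes 2 fell and none rose, of 15 photosystem II genes 4 rose and 1 fell, of 6 cytochrome complex genes 3 rose and 1 fell, and of 15 ribosomal protein genes 2 rose and 2 fell. For photosystem II and ribosomal protein genes these shares lay near the 28.9% of all probe sets called. The polymerase and cytochrome groups held few genes, and over all probe sets 13.2% rose and 15.7% fell. In each of the 15 plastid genes that rose, replicate 2 was the higher of the day 5 arrays, and so it was for rpoC1, which fell. The 25S ribosomal RNA control had a like course, with 12.30 on both day 3 arrays, 12.46 and 12.50 on day 4 and 13.30 and 13.52 on day 5. Any link between that control and the plastid values was not tested.

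**Figure D5:**
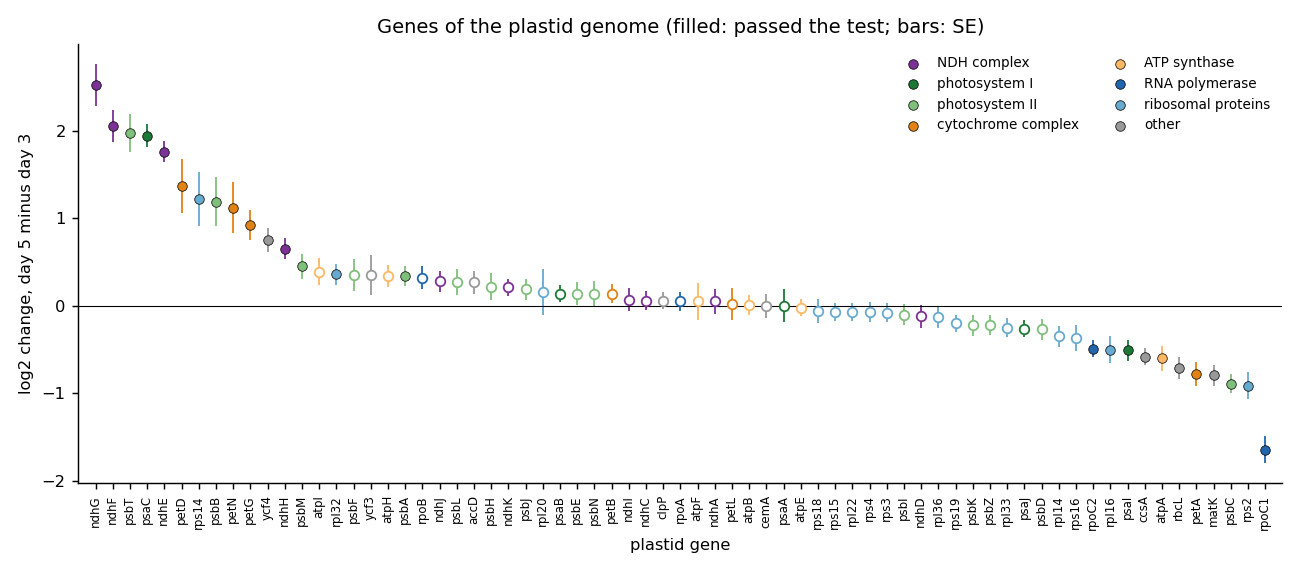
Log2 change from day 3 to day 5 of the 69 plastid genes measured, ordered by change; colours give the complex, filled points were called, open points did not pass and bars are SE. Genes of the NDH complex appear among the rises at the left, rpoC1 at -1.64 at the right, and poly-A scaling would lower every point by about 0.45.

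Of 7 measured genes of floral identity and the meristem 3 fell and none rose, 42.9% called against 28.9% of all probe sets. Only 1 fell without day 3 replicate 1 or without day 5 replicate 1, and with poly-A scaling 5 fell. ROXY1 (AT3G02000), a glutaredoxin gene of petal and anther formation, had 5.90 and 6.30 on day 5 and 6.67 and 6.98 on day 3 (change -0.72, SE 0.14). All 3 measured genes of the early anther and tapetum fell, against 15.7% of all probe sets, and again only 1 fell without day 3 replicate 1 or without day 5 replicate 1. SPL (AT4G27330) is counted among the falls of both of these lists. EMS1 (AT5G07280), the receptor kinase that sets tapetal fate, had 8.66 and 8.69 on day 5 and 9.16 on both day 3 arrays. AMS, given above, changed by -0.54, and its call ended when either day 3 array was left out, at an adjusted p of 0.0553 without replicate 1 and 0.102 without replicate 2. The same held without day 5 replicate 1, at 0.147. SHT (AT2G19070), whose enzyme makes the spermidine conjugates of the pollen coat, had 10.04 and 9.85 on day 5 and 11.17 and 11.02 on day 3 (change -1.15, SE 0.11, limma adjusted p = 3.82e-05), with day 4 at 11.08 and 10.91. ATA27 did not pass, at a change of 0.24 (adjusted p = 0.161).

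Of 9 late pollen and pollen tube genes 3 rose and 1 fell, 44.4% called against 28.9% of all probe sets, with a median of 0.06. Without day 5 replicate 1 none rose and without day 3 replicate 1 only 1, while with poly-A scaling none rose and 6 fell, at a median of -0.37. Of 7 carpel and ovule genes 1 rose and 1 fell, and the 28.6% called was close to the 28.9% of all probe sets. The fall was lost without either day 5 array or without day 3 replicate 2, and with poly-A scaling none rose and 5 fell. ALC (AT5G67110), a factor of fruit opening, had 9.68 and 9.87 on day 5 and 9.17 and 8.83 on day 3, and its rise of 0.77 did not pass with poly-A scaling (0.34, adjusted p = 0.0660). Of 40 measured MADS-box genes 4 rose and 3 fell, 17.5% called against 28.9% of all probe sets, but with poly-A scaling 1 rose and 30 fell. Without day 3 replicate 2 or day 5 replicate 2 none fell. Only 1 fell without day 5 replicate 1, and 2 rose without day 3 replicate 1 or day 5 replicate 2. AGL67 (AT1G77950), a MADS-box gene of seed germination control, had 5.22 and 5.80 on day 5 and 3.66 and 3.79 on day 3 (change 1.78, SE 0.16, limma adjusted p = 2.25e-05). Its day 3 levels lay below the lower quartile of all values, 4.99, so the size of this change is less certain than its direction.

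Of 14 glutathione transferase genes, which couple glutathione to reactive compounds, 2 rose and 5 fell, 50.0% called against 28.9% of all probe sets. The falls numbered 3 without day 3 replicate 2, and with poly-A scaling 2 rose and 9 fell, at a median of -0.42. GSTU25 (AT1G17180) had 6.38 and 6.39 on day 5 and 4.55 and 4.93 on day 3 (change 1.65, SE 0.13), and GSTU16 rose by 0.93 (SE 0.11). GSTU20 (AT1G78370) had 9.79 and 9.98 on day 5 and 11.06 and 11.15 on day 3 (change -1.22, SE 0.15), and GSTF4 fell by 0.82 (SE 0.13). Of 20 beta-glucosidase genes 2 rose and 4 fell, and the 30.0% called was close to the 28.9% of all probe sets. Only 2 fell without day 3 replicate 1 or day 5 replicate 2, and with poly-A scaling 1 rose and 15 fell. Without day 3 replicate 2 or day 5 replicate 2, 1 rose. Of this family, BGLU44 and BGLU42 changed by -1.17 and -0.68 and BGLU45 by 0.87. Of 6 flavonoid genes 2 rose and 2 fell, 66.7% called against 28.9% of all probe sets, with 1 fall without either day 5 array or without day 3 replicate 2. DFR (AT5G42800), the reductase that leads to anthocyanins, had 5.71 and 6.22 on day 5 and 4.85 and 4.93 on day 3. UF3GT (AT5G54060), which adds sugar to anthocyanins, had 7.21 and 7.35 on day 5 and 6.08 and 6.60 on day 3. The day 3 levels of GSTU25 and DFR lay below the lower quartile of all values, 4.99.

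Among the 10 called genes with the highest mean signal 3 rose and 7 fell, and the falls were small, between -0.45 and -0.33. The cysteine protease family gene AT4G16190 had 13.32 and 13.36 on day 5 and 12.27 and 12.13 on day 3 (change 1.14, SE 0.11, limma adjusted p = 2.52e-05). AT1G66850, of the lipid-transfer protein family, had 13.77 and 13.86 on day 5 and 12.99 and 13.28 on day 3, and its rise of 0.68 did not pass with poly-A scaling (0.24, adjusted p = 0.105). The ribosomal protein genes AT4G17390, AT1G18540, AT3G60770 and AT2G01250 changed by -0.41, -0.34, -0.41 and -0.38. Each of these 4 calls ended when 1 array of the 2 days was left out, for at least 3 of the 4 choices (adjusted p from 0.0514 to 0.152).

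Of 147 genes with 2 or more probe sets of their own, 46 had at least 1 probe set called. In 8 of these 2 or more were called, all 8 in the same direction, and no gene had probe sets called in opposite directions.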

How the data were processed

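Total RNA of unopened buds was labelled with biotin and hybridised to 1 array per sample. The submitters' processing notes credit RMA and affy for the deposited log2 values. Neither a version nor the set of arrays normalized jointly is given in the sources used here. RMA sets all arrays to 1 distribution, so a shift shared by most transcripts cannot be seen. Values ran from 2.98 to 14.74. The number of arrays limits the precision.

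All 6 arrays entered 1 limma 3.58.1 model in R 4.3.3 (lmFit, contrasts.fit, eBayes without trend) with the day as its term, and day 5 was set against day 3, two-sided, over 22746 probe sets (3 residual and 8.01 prior degrees of freedom). On simulated data with 200 changed probe sets, 61% of log2 changes of 0.5 and 100% of changes of 1 were recovered, with 16 false calls. The simulated noise was independent between probe sets, and far fewer of them were changed than the 28.9% called in the data. These rates therefore do not carry over to the calls described here. Names came from the platform annotation, of which 13436 of 13513 matched the RefSeq table of TAIR10.1, and 503 probe sets with several genes and 8730 not named here named no gene. For a gene with several probe sets, that with the highest mean stood for it.

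The genes named are the 30 largest rises and the 30 largest falls among calls with exactly 1 gene and no overlap of the 2 days, up to 6 members with the smallest p in each list of at least 3 measured genes, and the 10 called genes of highest mean, not all of which are described. Exceptions are marked in the text as named after their values had been seen, and LEA (AT2G21490) and the root markers PYK10 and EXPA7 are exceptions too. Of 749 members of 29 locus lists, 130 had a probe set of their own, 23 had a symbol at odds with the locus and were left out, and the rest were not analysed here. A further 48 lists were made from symbols and locus patterns, and the plastid list from the RefSeq chromosome. The members and lists were chosen with earlier results of these data known. No set test was run. Replicate numbers did not pair the arrays: their deviations correlated at 0.058, -0.002 and 0.098 across the pairs of days. Replicate arrays of a day correlated at 0.9962 to 0.9972 and none was a duplicate. Alternatives changed the prior, the scaling, filters, the replicate block, the arrays fitted and the minimum change.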

Additional observations from a re-analysis of the deposited data

How the results depend on the processing

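The 6566 calls of day 5 against day 3 became 17235 with poly-A scaling and 2277 with a minimum change of 1.2-fold. Under these 2 settings rises numbered 818 and 1148, against 2994, and falls 16417 and 1129, against 3572. Scaling to the controls gave 193 rises and 1417 falls of at least 2-fold, against 456 and 290. Distinct list members called numbered 342 and 89 under the 2 settings, against 191. The cause was not tested, beyond the shift of -0.45 that the scaling makes by construction. Leaving out 1 array gave 3844 to 7034 calls, 1877 to 3198 rises, 1967 to 3836 falls, 421 to 511 rises and 270 to 345 falls of at least 2-fold, and 133 to 197 list members. The upper ends of the ranges of calls, rises and falls came from leaving out a day 4 array, which is not in the contrast. Leaving out any array of day 5 or day 3 lowered the calls, rises and falls. The fit with the replicate block gave 6718 calls, although the numbers do not pair the arrays. All other settings moved these counts by less than 1.5 times.

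Of 142 named genes that passed, 120 kept their call and direction under every setting run, 134 kept theirs whichever single array was left out, 8 calls ended with poly-A scaling and 14 with the 1.2-fold minimum, among them SLY1, HTB11, CHLI2, CHLM, PSAN and EMS1. None reversed. Of the genes that had not passed, HON4, PYK10, EXPA7 and ALPHA-VPE turned to -0.38, -0.41, -0.37 and -0.31 with poly-A scaling. Signals near the floor of the arrays limit what can be seen among the dimmest probe sets.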

Other observations

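A further set of rises lay just below the 30 largest and was chosen after its values had been seen. Of 4 measured genes for vacuolar processing enzymes, proteases that mature vacuolar proteins and take part in cell death, 2 rose and 1 fell. Over all probe sets 13.2% rose and 15.7% fell. GAMMA-VPE (AT4G32940) had 9.34 and 9.09 on day 3, 9.69 and 9.79 on day 4 and 11.26 and 11.34 on day 5 (change 2.08, SE 0.11, limma adjusted p = 9.61e-07). BETA-VPE (AT1G62710), known from seeds, averaged 7.02 on day 3, 8.30 on day 4 and 9.02 on day 5 (change 2.00, SE 0.10, n = 2 each). The larger part of the rise came from day 4 to day 5 for GAMMA-VPE and from day 3 to day 4 for BETA-VPE, a difference that was not tested. DELTA-VPE (AT3G20210), known from the seed coat, was lower, with 6.66 and 6.36 on day 5 and 7.52 and 7.19 on day 3 (change -0.84, SE 0.19). Leaving out day 3 replicate 1 ended that call, with a limma adjusted p of 0.0690, as did leaving out day 5 replicate 2, with 0.0578. ALPHA-VPE (AT2G25940) did not pass, with 4.71 and 4.60 on day 5 and 4.38 and 4.69 on day 3, and its sign turned with poly-A scaling. AT1G21000, a second gene of the PLATZ family, had 9.57 and 9.93 on day 5 and 7.74 and 7.72 on day 3, and AT2G41190, of an amino acid transporter family, rose by 2.04 (SE 0.14). The calls of GAMMA-VPE, BETA-VPE, AT1G21000 and AT2G41190 held under every setting run.

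Probe sets not named here held 2832 of the 6566 calls, 32.4% of the 8730, with 225 rises and 134 falls of at least 2-fold.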
